A study of Homo sapiens with 3 samples.

Results

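To describe how PHF13 and EZH2 are placed at the genes of cell adhesion to the matrix, the peaks of both antibodies were collected at 37 genes that encode integrin and laminin chains, out of 20163 protein-coding genes. These were 18 integrin alpha chains, 8 integrin beta chains, 5 laminin alpha chains, 4 laminin beta chains and 2 laminin gamma chains. A peak was taken when any of its bases lay inside the gene or within 5 kb of any annotated transcription start site (TSS) of it. This gave 36 of 19039 PHF13 peaks and 40 of 21639 EZH2 peaks, and no peak belonged to more than 1 of the genes. Each list comes from 1 chromatin immunoprecipitation and sequencing (ChIP-seq) library of PANC-1, an established line of human pancreatic ductal carcinoma, listed as wild type and without a treatment. The third library of the series, input chromatin, was the control for peak calling and was not itself analysed here. Crosslinking was done with EGS, which joins proteins to one another, together with paraformaldehyde and formaldehyde. There are no replicates, so the spread between libraries is unknown and no p-value is given.

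Integrins are surface receptors built from 1 alpha and 1 beta chain, which tie the extracellular matrix to the actin skeleton. ITGB1 is the beta chain shared by many of these receptors, ITGA6 and ITGB4 form the laminin receptor of hemidesmosomes, and the beta chains ITGB3, ITGB5, ITGB6 and ITGB8 pair with ITGAV. Laminins are trimers of an alpha, a beta and a gamma chain, and they form the sheet of the basement membrane that carcinoma cells cross when they invade. PHF13 is a PHD-finger protein that reads methylated histone H3, and EZH2 is the methyltransferase of Polycomb repressive complex 2, which in many cell types occupies CpG-rich starts of silent genes.

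The 200 bp around the summit, the point of highest coverage of a peak, are printed for 5 PHF13 and 2 EZH2 peaks, since the results below turn on their sequence. They show the plus strand of GRCh37 (hg19). In the PHF13 peaks, the AP-1 site TGACTCA (on the other strand TGAGTCA) is in capitals. These are the highest-ranked PHF13 peaks with this site, 1 for each gene. In the EZH2 peaks, at the starts of LAMA3 and ITGA8, every CpG is in capitals.
ITGB5 (PHF13 peak, chr3:124597828-124598027): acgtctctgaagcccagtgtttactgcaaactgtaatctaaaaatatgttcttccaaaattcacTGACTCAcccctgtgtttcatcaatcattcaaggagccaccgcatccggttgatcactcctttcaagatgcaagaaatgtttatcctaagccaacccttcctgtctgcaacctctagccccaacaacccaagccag
ITGA3 (PHF13 peak, chr17:48128475-48128674): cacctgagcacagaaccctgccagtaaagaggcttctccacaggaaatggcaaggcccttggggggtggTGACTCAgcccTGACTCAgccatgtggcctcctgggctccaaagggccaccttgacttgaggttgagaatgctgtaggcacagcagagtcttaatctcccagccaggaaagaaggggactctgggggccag
LAMC1 (PHF13 peak, chr1:183029621-183029820): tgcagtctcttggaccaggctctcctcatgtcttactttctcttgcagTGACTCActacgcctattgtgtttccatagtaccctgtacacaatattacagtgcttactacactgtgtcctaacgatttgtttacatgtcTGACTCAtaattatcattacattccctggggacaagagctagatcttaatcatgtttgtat
ITGA6 (PHF13 peak, chr2:173306861-173307060): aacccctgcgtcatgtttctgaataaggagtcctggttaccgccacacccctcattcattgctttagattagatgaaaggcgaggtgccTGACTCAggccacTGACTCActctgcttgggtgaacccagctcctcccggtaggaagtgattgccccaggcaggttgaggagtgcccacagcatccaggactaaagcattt
ITGB1 (PHF13 peak, chr10:33294587-33294786): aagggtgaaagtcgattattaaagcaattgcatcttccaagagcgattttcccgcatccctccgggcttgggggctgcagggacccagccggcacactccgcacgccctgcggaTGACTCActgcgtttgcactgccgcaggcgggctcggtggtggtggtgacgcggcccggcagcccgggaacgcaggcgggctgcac
LAMA3 (EZH2 peak, chr18:21269767-21269966): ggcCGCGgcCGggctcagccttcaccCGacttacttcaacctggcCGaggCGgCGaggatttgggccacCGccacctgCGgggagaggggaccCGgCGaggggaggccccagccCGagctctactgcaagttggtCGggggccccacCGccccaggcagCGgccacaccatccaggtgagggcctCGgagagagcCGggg
ITGA8 (EZH2 peak, chr10:15761483-15761682): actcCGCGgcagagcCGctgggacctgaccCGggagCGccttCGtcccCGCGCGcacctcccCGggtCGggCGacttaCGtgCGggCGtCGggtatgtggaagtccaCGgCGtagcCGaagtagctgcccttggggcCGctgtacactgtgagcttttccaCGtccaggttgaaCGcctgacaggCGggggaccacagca

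PHF13 peaks were present at 21 of the 37 genes (56.8%), and most of the strongest lay in introns or upstream of the gene rather than at its main start. Over all protein-coding genes, the share with a PHF13 peak by the same rule was 31.2%. Integrin beta chains held 3 of the 5 highest-ranked leading peaks, a leading peak being the one with the highest −log10 q of its gene. Fold enrichment, the ratio of ChIP coverage to the local background at the summit, ranged from 2.55 to 6.75 over the 36 peaks, with a median of 3.65. The median over all PHF13 peaks was 3.41. Between 13 and 48 fragments covered the summits, so each fold is given with the 95% exact Poisson interval of its fragment count, which covers counting error in the ChIP coverage only.

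The best-ranked PHF13 peak lay in ITGB5 (ENSG00000082781), the beta chain of a vitronectin receptor. It was at chr3:124597516-124598223, in an intron 8284 bp downstream of the canonical start and over the TSS of another transcript, with a fold enrichment of 5.57 (4.13 to 7.34), a −log10 q of 18.1 and 48 fragments. ITGB5 had 3 further PHF13 peaks and no EZH2 peak. Next came ITGA3 (ENSG00000005884), the alpha chain of a laminin receptor of epithelial cells. Its peak at chr17:48128463-48128725 was upstream, 4607 bp from the closest TSS of ITGA3, and had a fold enrichment of 5.14 (3.82 to 6.79) and a −log10 q of 16.6. The long non-coding RNA gene PICART1 also has a TSS within 5 kb of this peak. LAMC1 (ENSG00000135862), the common laminin gamma chain, had the highest fold enrichment of all 36, at 6.75 (4.76 to 9.31). This peak was at chr1:183029555-183029959, in an intron 37166 bp downstream of the start, with 35 fragments over a background of 4.33. That value is close to the floor of the background in the PHF13 list, 4.23. The peaks of ITGB5 and ITGA3 had more fragments, 48 each, over backgrounds of 7.8 and 8.52. These 3 peaks were single-copy in sequence, meaning that the median 24-mer of the 100 bp at the summit occurs once in the genome.

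The peak of ITGB3 (ENSG00000259207), the beta chain of a platelet and vitronectin receptor, was close to that of LAMC1 in fold. It lay in an intron at chr17:45382982-45383209, 51928 bp from the start, with a fold enrichment of 6.61 (4.64 to 9.17) and a −log10 q of 15.5. ITGB2 (ENSG00000160255), the beta chain of leukocyte integrins, had an intronic peak at chr21:46348744-46348941 over the TSS of an alternative transcript, with a fold enrichment of 5.60 (4.01 to 7.64). The median 24-mer beneath it occurs 5 times in the genome, so reads from other copies cannot be separated from it. At ITGA10 (ENSG00000143127), an alpha chain of a collagen receptor, the peak lay in untranslated sequence at the far end of the gene, at chr1:145542405-145543033, with a fold enrichment of 4.46 (3.13 to 6.18).

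The rest of the 10 leading peaks were weaker and overlapped in their intervals. ITGA6 (ENSG00000091409) had an intronic peak at chr2:173306856-173307027 with a fold enrichment of 4.44 (3.04 to 6.28) and a −log10 q of 8.43. LAMB1 (ENSG00000091136), a widely expressed laminin beta chain, had an intronic peak at chr7:107593087-107593230 with a fold enrichment of 4.39 (2.97 to 6.28). A second LAMB1 peak, at chr7:107589794-107590286, lay near it in the same part of the gene, with a fold enrichment of 3.68. ITGA2 (ENSG00000164171), the alpha chain of a collagen receptor that the study discusses as linked to a super-enhancer, had its leading peak upstream of the gene at chr5:52283650-52283910, 1260 bp from the closest TSS, with a fold enrichment of 4.13 (2.75 to 5.97) and a −log10 q of 6.47. A weaker peak lay in an intron of ITGA2 at chr5:52325058-52325292, with a fold enrichment of 2.77. ITGB1 (ENSG00000150093) had 4 PHF13 peaks and none of EZH2. The first was at chr10:33299095-33299489, upstream of the outermost annotated start, with a fold enrichment of 4.03 (2.66 to 5.87). Another was at chr10:33247310-33247650, 57 bp from a TSS, with a fold enrichment of 4.02. It was the only PHF13 peak within 1 kb of the canonical start of any of the 37 genes.

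The other 11 genes with a PHF13 peak were ITGAM, ITGAE, ITGAL, ITGA9, LAMA1, ITGAV, LAMA2, ITGA8, ITGB6, ITGA1 and LAMB3. Their leading −log10 q ran from 5.32 at ITGAM down to 1.91 at LAMB3, and the fold enrichment from 4.21 to 2.76. At ITGAE, the peak at chr17:3627053-3627231 also lies within 5 kb of a TSS of HASPIN, a protein kinase gene nested in ITGAE. It was the only one of the 36 PHF13 peaks with another protein-coding TSS that close. At a −log10 q of at least 3, the limit the study states for PHF13, peaks remained at 16 of the 37 genes. Peaks with a −log10 q of 5 or more were found at 12 of the 37 genes (32.4%), and at 11.0% of all protein-coding genes.

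**Figure D1:**
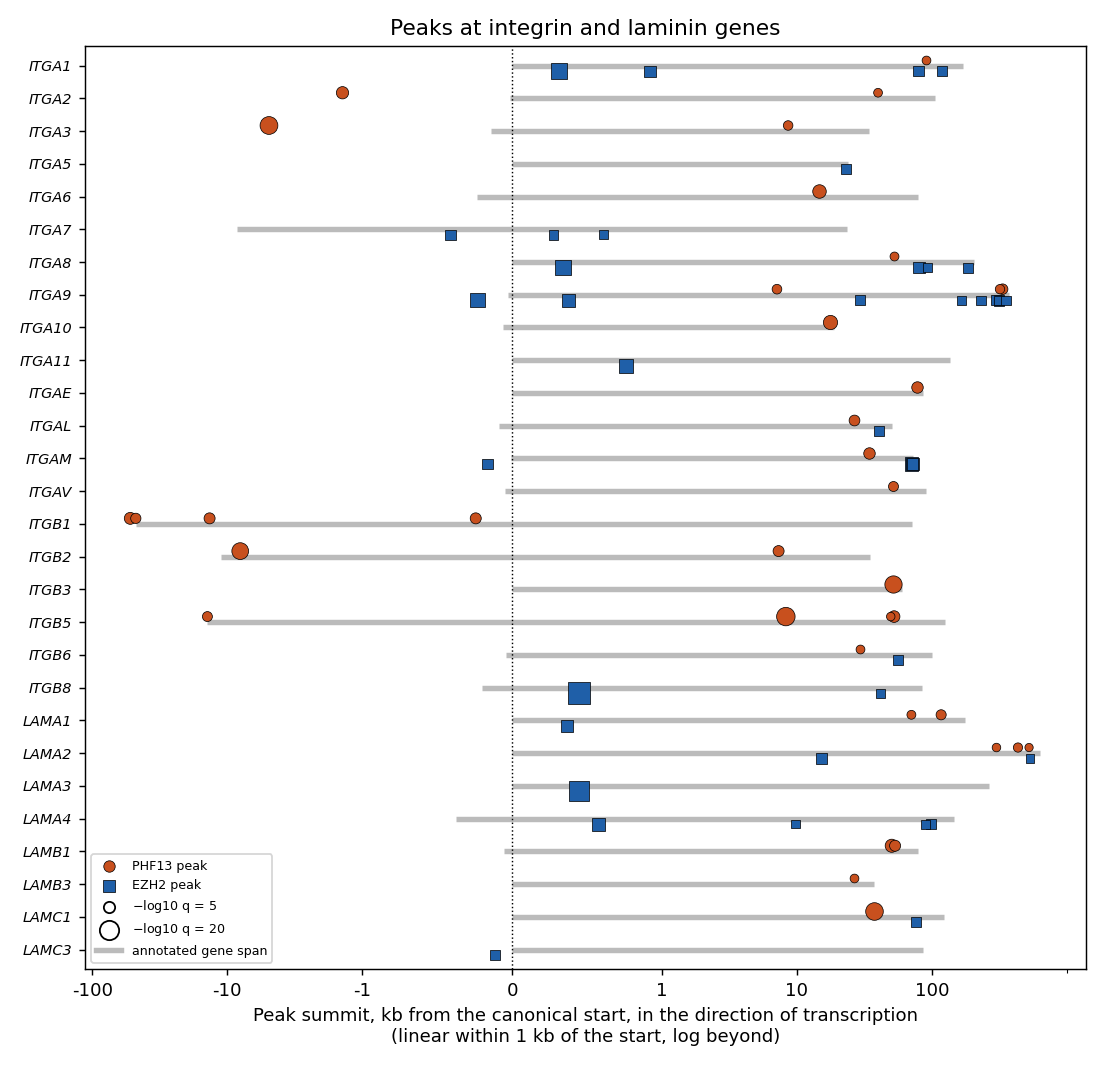
Position of each peak summit (x axis, kb from the canonical start in the direction of transcription, linear within 1 kb and logarithmic beyond) at the 28 genes with a peak. Circles are PHF13 and squares EZH2 peaks, the marker area grows with −log10 q, and grey bars are the gene spans. Except at ITGAM, EZH2 squares with a −log10 q of at least 5 sit within 1 kb of the start, and every PHF13 circle of that strength lies farther from it.

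EZH2 peaks were present at 16 of the 37 genes (43.2%), compared with 30.0% of all protein-coding genes, and the strongest covered gene starts. Of the 40 peaks, 19 (47.5%) lay over or within 1 kb of a TSS of their gene, which was true of 8 of 36 PHF13 peaks (22.2%). Much of this contrast belongs to the lists: counting a TSS of any gene, 52.5% of the 40 EZH2 peaks and 27.8% of the 36 PHF13 peaks lay that close, compared with 43.8% and 31.4% of the peaks at all protein-coding genes. The median fold enrichment was 2.95 in the 40 peaks and 3.13 in all EZH2 peaks, with 14 to 87 fragments at the summit. All 5 peaks wider than 1 kb covered a TSS, at ITGB8, LAMA3, ITGA1, ITGA8 and ITGA11.

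ITGB8 (ENSG00000105855), the beta chain of a receptor that activates latent TGFβ, had the best-ranked and widest EZH2 peak. It spanned 2027 bp at chr7:20369994-20372020, with the summit in untranslated exon sequence 448 bp downstream of the start, a fold enrichment of 4.54 (3.65 to 5.59), a −log10 q of 26.7 and 87 fragments. LAMA3 (ENSG00000053747), an alpha chain of epithelial laminins, had the highest fold enrichment, at 5.72 (4.40 to 7.32). Its peak at chr18:21269186-21270417 had the summit in a coding exon 450 bp from the start, and 61 fragments. ITGB8 and LAMA3 had no PHF13 peak. The other wide peaks were at ITGA1 (ENSG00000213949; chr5:52083263-52084435, fold enrichment 4.31, 3.19 to 5.70), an alpha chain of a collagen receptor, and ITGA8 (ENSG00000077943; chr10:15760727-15762112, fold enrichment 3.78, 2.84 to 4.93), an alpha chain known from kidney development. The peak at the start of ITGA1 also lies within 5 kb of a TSS of the nested gene PELO, and the 2 starts cannot be told apart from it.

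At ITGA11 (ENSG00000137809), the alpha chain of a collagen receptor of fibroblasts, the wide peak at chr15:68723649-68725016 had a fold enrichment of only 2.97 (2.22 to 3.88) with 51 fragments. ITGA9 (ENSG00000144668), an alpha chain that binds tenascin and VCAM1, had 9 EZH2 peaks, the most of any of the genes. Of these, 2 lay at its canonical start, the first at chr3:37493267-37493639 with a fold enrichment of 3.11 (2.36 to 4.04) and the second at chr3:37493783-37494212 with 2.80. The other 7 lay deeper in the gene, each with a −log10 q below 4. ITGAM (ENSG00000169896), an alpha chain of leukocyte integrins, differed from these genes in that 3 of its 4 EZH2 peaks lay at the far end of the gene. The first was at chr16:31341887-31342115, 70673 bp from the canonical start, 186 bp from the TSS of a shorter transcript, with a fold enrichment of 3.08 (2.30 to 4.03).

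Among the laminin alpha chains, LAMA4 (ENSG00000112769), found in vessel walls, had an EZH2 peak at chr6:112574700-112575422, 579 bp from the start, with a fold enrichment of 3.46 (2.48 to 4.72). LAMA1 (ENSG00000101680), the alpha chain of the early embryo, had one at chr18:7117300-7117646, with a fold enrichment of 4.06 (2.66 to 5.96). In contrast, LAMA2 (ENSG00000196569), the alpha chain of muscle laminin, had its leading EZH2 peak in an intron, 15304 bp from the start, with a fold enrichment of 3.87 (2.44 to 5.88) and a −log10 q of 4.83. EZH2 peaks of 5 or more in −log10 q were found at 9 genes (24.3%), and at 16.4% of all protein-coding genes. The other 6 genes with an EZH2 peak were LAMC3, ITGA7, LAMC1, ITGAL, ITGA5 and ITGB6, with a leading −log10 q from 3.94 to 2.75. The LAMC3 peak covered the start, and the 3 peaks of ITGA7 lay over or within 1 kb of it, at a fold enrichment of no more than 2.37.

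**Figure D2:**
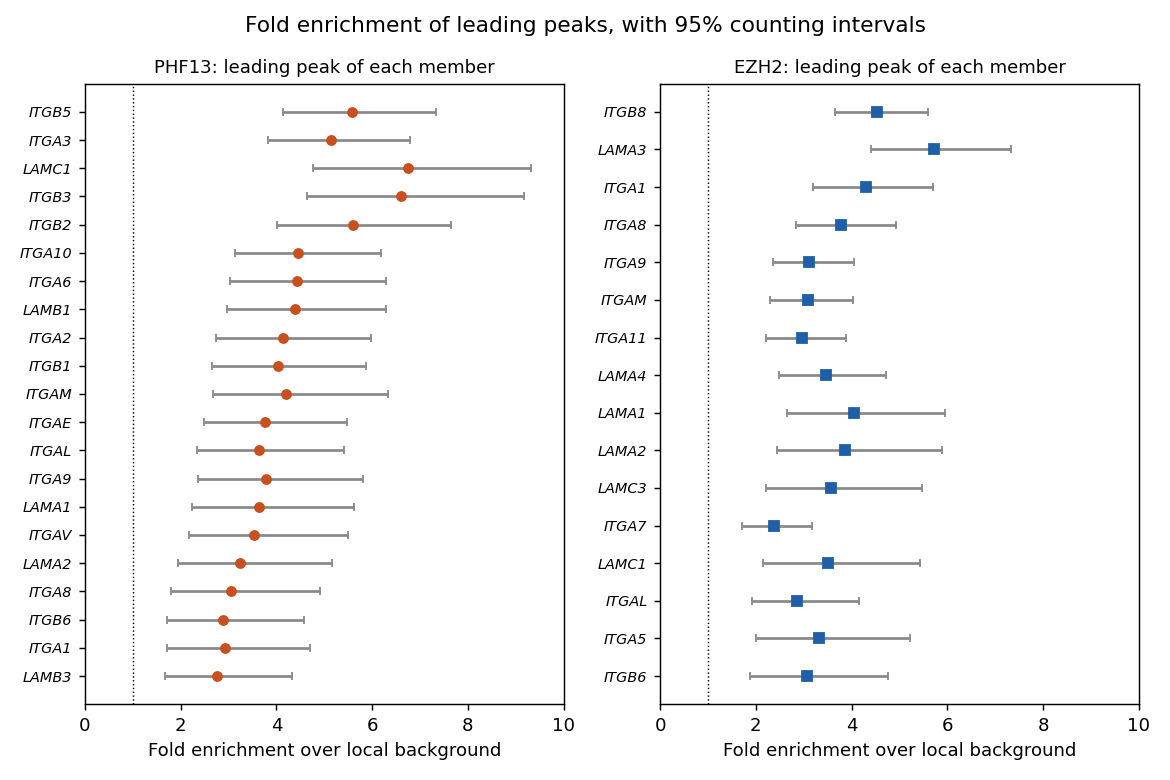
Fold enrichment over the local background (x axis) of the leading peak of each gene in the PHF13 list (left, 21 genes) and the EZH2 list (right, 16 genes), ordered by −log10 q. Bars are 95% counting intervals; the intervals of most neighbours overlap, and those of LAMC1 for PHF13 (4.76 to 9.31) and LAMA3 for EZH2 (4.40 to 7.32) start highest.

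No overlapping pair of a PHF13 and an EZH2 peak was found at these genes, and few genes of any kind have one, 1.99% of all protein-coding genes. Both had a peak at 9 genes (24.3%, compared with 12.6% of all protein-coding genes), namely ITGA1, ITGA8, ITGA9, ITGAL, ITGAM, ITGB6, LAMA1, LAMA2 and LAMC1. The count was 8 with single-copy peaks only, which leaves out ITGA8. It was 5 when peaks of either antibody had to reach 3 in −log10 q, and within 5 kb of a TSS only it was 1. An overlapping pair was found at 401 of the 6282 protein-coding genes with a PHF13 peak, and at 0 of the 21 here. With so few genes, a count of 0 does not set them apart from others. Over the whole list, which also holds peaks outside genes, 11.7% of PHF13 peaks overlapped an EZH2 peak. The whole list held a larger share of peaks in repeated sequence, 34.4% against 4 of 36 (11.1%) here, and the part of this in the overlap was not tested. The closest pair was in ITGA9, where the peaks were 5798 bp apart, and the median distance from a PHF13 peak to the nearest EZH2 peak of the same gene was 27100 bp. In LAMC1, the strong intronic PHF13 peak lay 38685 bp from a weak EZH2 peak (chr1:183068644-183068805, fold enrichment 3.51). At ITGAM alone, both lists had a peak with a −log10 q of at least 5. At 12 genes only PHF13 had a peak and at 7 only EZH2. Of all 20163 protein-coding genes, 6282 had a PHF13 peak, 6052 an EZH2 peak and 2533 both. The share with EZH2 alone was thus close to that of all genes, and the share with PHF13 alone was above it, without regard to gene span.

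The EZH2 peaks that covered a TSS were rich in CpG. The 8 EZH2 peaks that covered a TSS had a median GC content of 69.3% in the 500 bp at the summit and a CpG observed/expected ratio between 0.688 and 0.854. The 14 EZH2 peaks over 5 kb from every TSS of their gene had median values of 44.7% and 0.189. The CpG ratio was 0.6 or more at 12 of the 40 EZH2 summits (30.0%) and at 3 of the 36 PHF13 summits (8.33%). In the peaks at all protein-coding genes, the shares were 31.7% (EZH2) and 20.7% (PHF13). The EZH2 share was thus close to that of other genes. In the whole lists, which also hold peaks outside genes, the shares were 20.7% and 14.1%. All 12 EZH2 summits lay within 1 kb of a TSS, 4 of them in peaks that did not cover one, at ITGA9, LAMA1, LAMA4 and ITGAM. Over the 19 EZH2 peaks within 1 kb of a TSS the ratio ran from 0.173 to 1.04. Its relation to the distance from a start was not tested. The printed windows of LAMA3 and ITGA8 hold 17 and 23 CpGs in 200 bp.

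**Figure D3:**
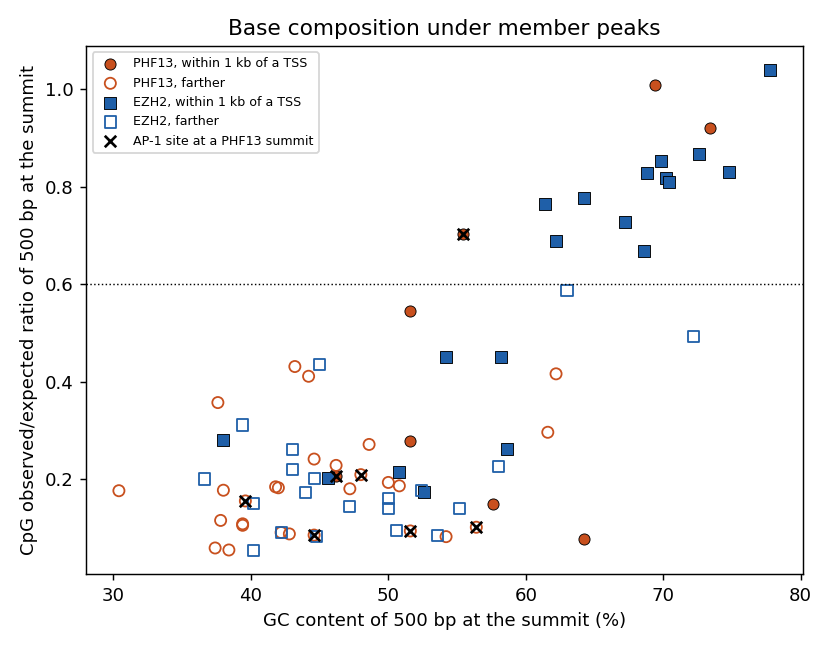
GC content (x axis, %) and CpG observed/expected ratio (y axis) of the 500 bp at each of the 36 PHF13 summits (circles) and 40 EZH2 summits (squares) of the 37 genes. Filled markers lie within 1 kb of a TSS of the gene, crosses mark PHF13 summits with an AP-1 site, and the dotted line is a ratio of 0.6; above it are 12 EZH2 and 3 PHF13 summits.

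CpG-rich starts were not all alike. A start was called CpG-rich when the 500 bp around the canonical TSS had a GC content of at least 50% and a CpG ratio of at least 0.6, which held for 22 of the 37 genes (59.5%) and for 67.0% of all protein-coding genes. EZH2 had a peak within 1 kb of 9 of these 22 starts (40.9%), namely ITGA1, ITGA7, ITGA8, ITGA9, ITGA11, ITGB8, LAMA1, LAMA3 and LAMC3. The share over all CpG-rich starts was 16.7%. Of the 15 other starts, 2 had an EZH2 peak within 1 kb, those of ITGAM and LAMA4, compared with 6.60% of all such starts. PHF13 had a peak within 1 kb of 1 of the 22 starts (4.55%), that of ITGB1, while the share over all CpG-rich starts was 13.3%. It had a peak at 0 of the 15 other starts, compared with 3.20% of all such starts.

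Genes with a CpG-rich start were split by whether EZH2 had a peak within 1 kb of that start. Among the 13 genes with a CpG-rich start and no EZH2 peak within 1 kb of it, 10 (76.9%) had a PHF13 peak anywhere in the gene or near a TSS, compared with 36.1% of all such genes. In 8 of them (61.5%) one reached a −log10 q of at least 5, namely ITGA2, ITGA3, ITGA6, ITGB1, ITGB3, ITGB5, LAMB1 and LAMC1. Among the 9 genes with EZH2 at a CpG-rich start, 4 (44.4%) had a PHF13 peak, compared with 34.3% of all such genes, and 0 had one with a −log10 q of at least 5. Of the 4, ITGA8 had its PHF13 peak in repeated sequence only. Over all protein-coding genes with a CpG-rich start, the shares with a PHF13 peak of that strength were 12.9% without and 10.3% with EZH2 at the start. With only 9 genes, a count of 0 does not set them apart from the 10.3%. The 9 genes are the longer ones, with a median span of 171.0 kb compared with 81.7 kb. For all protein-coding genes with a CpG-rich start, the medians were 60.7 kb with and 32.3 kb without EZH2 at the start. The shares here and over all such genes are thus not matched for length. This grouping was chosen after the values were seen and has no test.

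The sequence beneath the PHF13 peaks was examined for AP-1, the dimer of JUN and FOS proteins that binds TGACTCA. This site was chosen with earlier results of the whole series known, which include these 36 peaks. The site was present within the 200 bp at 7 of 36 PHF13 summits (19.4%, 95% Wilson interval 9.75 to 35.0). The shares were 11.2% in the whole PHF13 list and 12.3% in the PHF13 peaks at all protein-coding genes, both inside that interval. With single-copy peaks only, the share was 21.9% here and 15.4% in the whole list. The site was found in 0 of the 72 flanking windows of the same size 1000 bp away, where all PHF13 peaks had 2.96%. It was in 3.27% of all 200 bp windows along the 37 genes. None of the 40 EZH2 summits had it, and the share in all EZH2 peaks was 2.31% (2.16% and 1.86% of those with a −log10 q of at least 3 and 5). The 7 peaks were at ITGB5, which had 2 of them, and at ITGA3, LAMC1, ITGA6, ITGB1 and ITGA1. In the printed sequences, ITGA3, LAMC1 and ITGA6 each have 2 sites. In ITGA6 they begin 11 bp before and 2 bp after the summit, and in all 7 peaks at least 1 site lay within the central 100 bp.

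Peaks with the site were higher in the median. Their median fold enrichment was 4.44, and it was 3.63 in the 29 peaks without it, although the ranges of 2.93 to 6.75 and 2.55 to 6.61 overlapped almost fully. The 3 best-ranked PHF13 peaks, at ITGB5, ITGA3 and LAMC1, all had it, whereas those of ITGB3 and ITGB2 did not. With a −log10 q of at least 5, the share was 38.5% of 13 peaks, compared with 19.6% of all PHF13 peaks of that strength. Of the 7 peaks, 5 lay over 1 kb from every TSS of their gene. The peak at chr10:33294561-33294792, over the outermost annotated start of ITGB1, was the only one of the 7 in CpG-rich sequence, with a ratio of 0.704.

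By role, the counts were small, and they are to be read against the 31.2% (PHF13) and 30.0% (EZH2) of all protein-coding genes and the 57.5% and 52.0% of the longest group by span. The collagen-binding alpha chains ITGA1, ITGA2, ITGA10 and ITGA11 were all occupied by at least 1 of the proteins, PHF13 at 3 and EZH2 at 2. Of the integrin chains that bind laminin, ITGA3 and ITGA6 had only PHF13 peaks, ITGA7 had only EZH2 peaks and ITGB4 had none. The chains of RGD-binding receptors, which recognise fibronectin and vitronectin (ITGA5, ITGA8, ITGAV, ITGA2B, ITGB3, ITGB5, ITGB6 and ITGB8), carried PHF13 at 5 and EZH2 at 4 of 8 genes, near the shares of long genes. This PHF13 count includes ITGA8, whose only PHF13 peak lay in repeated sequence. Of the 7 leukocyte integrin chains, 4 had a PHF13 and 2 an EZH2 peak. EZH2 was present at 4 of the 5 laminin alpha chains, at both gamma chains and at 0 of the 4 beta chains. PHF13 was present at 2 of the alpha chains, LAMA1 and LAMA2, at the beta chains LAMB1 and LAMB3, and at the gamma chain LAMC1. Neither protein had a peak at 9 genes (24.3%, compared with 51.4% of all protein-coding genes). These were ITGA2B, ITGA4, ITGAD, ITGAX, ITGB4, ITGB7, LAMA5, LAMB2 and LAMB4.

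Integrin and laminin genes are long, and long genes hold more peaks. Their median span was 81.7 kb, compared with 27.2 kb over all protein-coding genes, and 22 of the 37 belonged to the longest of 4 equal groups by span. In that group, PHF13 was present at 15 of 22 genes (68.2%) and EZH2 at 13 (59.1%), close to the 57.5% and 52.0% of all genes as long. In the next group by span, PHF13 was present at 5 of 10 genes, compared with 32.0%, and EZH2 at 2 of 10, compared with 29.1%. Per length, the 4.18 Mb of the 37 genes and their flanks held 8.60 PHF13 peaks per Mb (95% exact Poisson interval 6.03 to 11.9) and 9.56 EZH2 peaks (6.83 to 13). The intervals treat peaks as independent of one another, although ITGA9 alone held 9 of the 40 EZH2 peaks. The densities over all protein-coding genes, 6.85 and 7.78 per Mb, lay inside these intervals. The share of genes with a peak in this family was thus nearer to that of genes of like length than to that of all genes. Within 1 kb of a TSS, EZH2 had a peak at 11 of the 37 genes (29.7%) and at 16.6% of all protein-coding genes, whereas the PHF13 shares were 13.5% and 13.6%. Within 5 kb of a TSS, PHF13 had a peak at 7 genes, compared with 21.0% of all protein-coding genes, and EZH2 at 14, compared with 23.6%.

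**Figure D4:**
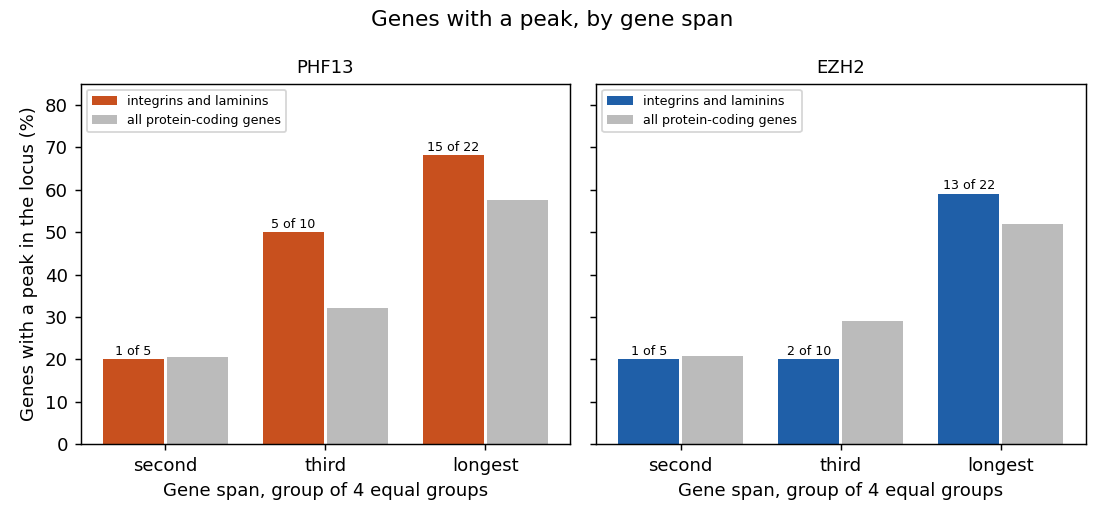
Share of genes with a PHF13 peak (left) or an EZH2 peak (right) in the gene or within 5 kb of a TSS (y axis, %), for integrin and laminin genes (coloured bars, with counts) and all protein-coding genes (grey bars), in 4 equal groups by gene span, of which the shortest holds none of the 37 and is not drawn. In the longest group the shares are 68.2% against 57.5% for PHF13 and 59.1% against 52.0% for EZH2.

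Peaks were also counted at 80 partner genes, listed by their known function. The shares over all protein-coding genes were 31.2% for PHF13 and 30.0% for EZH2, and 57.5% and 52.0% in the longest group by span. Of 27 cytoplasmic adhesion proteins, which couple integrins to actin, PHF13 was present at 15 (55.6%) and EZH2 at 5 (18.5%). The leading PHF13 peaks were at ACTN4 (chr19:39174291-39174896, fold enrichment 3.53, 2.90 to 4.27), which crosslinks actin and whose summit held an AP-1 site, at PARVB and at PTK2, the focal adhesion kinase (fold enrichment 4.74). The PARVB peak lay in repeated sequence. EZH2 covered the starts of TNS1 (fold enrichment 4.17, 3.43 to 5.02), FERMT1 and LIMS2. Of 18 other basement membrane proteins, 13 (72.2%) had an EZH2 and 6 (33.3%) a PHF13 peak, at a median span of 154.0 kb. The leading EZH2 peaks were at NTN1, a netrin (fold enrichment 3.90), and at the common start region of COL4A3 and COL4A4 (chr2:228028329-228029812, fold enrichment 4.77, 3.86 to 5.83). The peak at this common start is counted for both genes. PXDN, a peroxidase that crosslinks collagen, had the leading PHF13 peak, with a fold enrichment of 6.38 (4.52 to 8.77), followed by AGRN and COL4A3.

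Among 21 integrin ligands, with a median span of 18.0 kb, PHF13 was present at 5 (23.8%) and EZH2 at 6 (28.6%). In the second of the 4 groups by span, which includes that length, the shares were 20.6% and 20.7%. Those over all protein-coding genes, with a median span of 27.2 kb, were 31.2% and 30.0%. PHF13 led at TGFBI (fold enrichment 4.67), CCN1 and CCN2, and EZH2 at EDIL3 (fold enrichment 4.57), FBN1 and FN1, the fibronectin gene, all 3 over a TSS. Of 5 hemidesmosome genes, 3 had a PHF13 peak (DST, PLEC and CD151) and 2 an EZH2 peak (PLEC and DST). PLEC was the only 1 of the 80 where the peaks overlapped, in sequence whose median 24-mer occurs 10 times at the PHF13 summit and 7 times at the EZH2 summit. Of 9 other laminin receptors, 4 had a PHF13 peak, led by UTRN, SDC4 and SDC2, and 3 an EZH2 peak (SDC2, SDC3 and SDC1). The median spans of these lists ran from 18.0 to 154.0 kb, and no list was matched gene by gene for length.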

How the data were processed

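ChIP-seq libraries of PHF13, EZH2 and input from PANC-1 cells (1 library each) had been processed by the authors with Trim Galore 0.4.1, Bowtie2 2.4.1 on hg19, Picard and MACS2 2.2.7.1 against the input. The deposited lists give, for each peak, the fold enrichment as a ratio, the −log10 p and −log10 q of the summit, and a score of 10 times the −log10 q. The weakest peaks have a −log10 q of 1.30 (PHF13) and 1.31 (EZH2), a looser limit than the stated one for PHF13. EZH2 is described as called in broad mode, yet the deposited list is of narrow peaks.

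The lists were used as deposited. Fragments and background at the summit were solved from fold and p, with 1 solution within a relative error of 0.0001 for 100.0% of peaks; counts and intervals cover counting error only, and total depth was not derived. Genes and TSSs were those of GENCODE release 44 on GRCh37, the canonical start being that of the Ensembl canonical transcript. GC content, CpG ratio (500 bp), AP-1 sites (200 bp) and 24-mer copy number (100 bp) were read from the GRCh37 sequence with Python 3.11.15, numba 0.67.0 and scipy 1.17.1. The scripts were tested on simulated data. With 1 library per antibody, shares are set beside those of all protein-coding genes, without a test. For each list, the 10 genes with the highest −log10 q, genes with overlapping peaks and ITGA2 are described in full, together with up to 3 genes per partner list. The genes, the lists and the AP-1 site were chosen with earlier results of these data known. The alternatives were stricter q limits, TSS-only windows, assignment by summit, single-copy peaks, removal of peaks near other genes, other overlap rules and other AP-1 windows.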

Additional observations from a re-analysis of the deposited data

How the results depend on the processing

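No call above rests on a test, so the alternatives show only how values move. The alternatives only remove peaks or tighten the overlap rule, so the count of 0 overlapping pairs could not change and says nothing about stability. The distance rule moved the PHF13 counts most: within 5 kb of a TSS only, 7 genes had a PHF13 peak and 1 had both, and within 1 kb the counts were 5 and 0, while EZH2 stayed at 14 and 11 genes. With a −log10 q of at least 5, PHF13 peaks remained at 12 genes, EZH2 peaks at 9 and both at 1, the densities were 3.11 and 2.63 peaks per Mb, and 38.5% of PHF13 peaks had an AP-1 site. With a −log10 q of at least 3, PHF13 peaks were at 16 genes, EZH2 peaks at 15 and both at 5. The densities were then 5.50 (PHF13) and 6.69 (EZH2). Stricter limits lower densities by construction. Assignment by summit, single-copy peaks only and removal of peaks near another protein-coding TSS changed no count of genes by over 1.5 times, and AP-1 windows of 100 and 500 bp gave 19.4% and 30.6%. Summits of 13 to 87 fragments leave wide intervals, and weak peaks near the limit of either list may not recur in another library. No paired analysis was possible because each antibody has a single library.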
